A study of Mus musculus with 16 samples.

Results

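In mouse liver, 339 of the 7043 intervals in the authors' merged table of BMAL1 peaks were called in 4 or more of the 8 BMAL1 libraries, which is 4.81% of all intervals. They were taken as every interval whose deposited count of libraries is 4 or more, so they were chosen by the authors' peak calls. Calls by library are therefore given below as a description, with no test. Of the 339, 150 were called in 4 libraries, 78 in 5, 48 in 6, 29 in 7 and 34 in all 8, against 5526 intervals called in 1 library, 859 in 2 and 319 in 3.

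The study compared BMAL1 occupancy in male and female C57bl6 livers under a control or a misaligned protocol, at ZT0 and ZT12 (hours after lights on) under 12 h of light and 12 h of dark. All mice were 8 to 16 weeks old and ate a diet with 42% of calories from fat from the start of the protocol, controls included. Each of the 8 groups had 1 BMAL1 library, pooled from 3 to 4 mice, and 1 IgG library that is not used here, so no difference between groups can be set against replicate error. The read depth is not stated, and the labels do not describe the misalignment schedule. Whole liver was used, so a stronger peak in each cell and more cells that carry it cannot be told apart.

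BMAL1 is a basic helix-loop-helix protein that binds DNA as a pair with CLOCK, at the E-box CACGTG and at close variants of it. The pair switches on Per, Cry and Nr1d genes, whose products in turn repress the pair or its genes, and this loop gives the daily rhythm. Output factors such as Dbp, Tef and Hlf pass the rhythm on to metabolic genes of the liver.

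Sequence was available for promoters, from 250 bases before to 50 after each RefSeq start on GRCm38.p6, the build of the peaks. Of the 339 intervals, 160 overlapped at least 1 such window, 215 windows of 196 genes in all. Upstream stretches with CACGTG under clear intervals of 6 to 8 libraries numbered 18. The 9 below, with CACGTG in capitals, were chosen after their values were seen, to show single and repeated E-boxes both near to the summits and far from them. They are written 5′ to 3′ on the strand of the named gene, and all lie upstream of its start.

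Ciart: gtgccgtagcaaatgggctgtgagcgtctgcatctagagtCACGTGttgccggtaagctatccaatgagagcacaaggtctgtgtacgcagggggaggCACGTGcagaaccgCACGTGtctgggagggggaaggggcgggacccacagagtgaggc
5930430L01Rik: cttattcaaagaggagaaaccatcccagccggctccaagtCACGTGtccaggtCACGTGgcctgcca
Nptn: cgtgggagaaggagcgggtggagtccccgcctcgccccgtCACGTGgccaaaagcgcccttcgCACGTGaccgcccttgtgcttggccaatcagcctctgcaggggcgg
Ankrd12: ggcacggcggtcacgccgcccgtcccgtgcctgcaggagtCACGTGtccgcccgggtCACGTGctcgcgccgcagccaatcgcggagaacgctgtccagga
Bnip3: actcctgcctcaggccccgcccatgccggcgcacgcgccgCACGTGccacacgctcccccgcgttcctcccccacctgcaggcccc
Klf11: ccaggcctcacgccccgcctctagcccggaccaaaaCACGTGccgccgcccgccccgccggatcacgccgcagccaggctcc
Per1: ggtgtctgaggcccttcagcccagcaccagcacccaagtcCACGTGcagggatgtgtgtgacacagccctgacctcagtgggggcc
Cry1: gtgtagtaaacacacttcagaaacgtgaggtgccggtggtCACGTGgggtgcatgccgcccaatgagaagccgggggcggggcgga
Tef: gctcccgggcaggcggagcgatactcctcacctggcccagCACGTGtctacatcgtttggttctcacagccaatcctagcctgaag

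The stretch of Ciart, which encodes a repressor of the BMAL1 and CLOCK pair, lies at chr3:95882229-95882384 on the minus strand and holds 3 E-boxes, with 52 and then 8 bases between neighbours. That of 5930430L01Rik, at chr5:148995215-148995281 on the minus strand, holds 2 with 7 bases between them. Nptn (a cell adhesion protein), at chr9:58582063-58582171 on the plus strand, has 2 with 17 bases between them. Ankrd12, at chr17:66077047-66077147 on the minus strand, has 2 with 11 bases between them. Single E-boxes stand in Bnip3 (a receptor for the removal of mitochondria; chr7:138909569-138909654, minus) and Klf11 (a zinc finger factor; chr12:24651121-24651202, plus). The same holds for the clock repressors Per1 (chr11:69098743-69098828, plus) and Cry1 (chr10:85185069-85185154, minus), and for Tef (chr15:81811236-81811321, plus).

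The median distance from summit to E-box was at most 16.5 bp in 6 of the 18 stretches, all 6 of them printed, and 28.5 to 689 bp in the other 12, of which 3 are printed. The 12 are not all separate sites. Gm39990 and Pard6b share 1 E-box, read on opposite strands, and 1600020E01Rik and Pcbp1 share 1 interval. At Nptn the distance from summit to the nearest E-box centre was 1.5 to 11.5 bp over the 7 libraries that called it, with a median of 6.5 bp. The median was also 6.5 bp at Bnip3 (8 libraries, 0.5 to 41.5 bp), 7.5 bp at Ankrd12 (7 libraries, 0.5 to 48.5 bp) and 14 bp at Klf11 (6 libraries, 7.5 to 38.5 bp). At Ciart it was 16 bp (8 libraries, 3.5 to 28.5 bp), and at the Per1 promoter 16.5 bp (6 libraries, 1.5 to 19.5 bp). The summits of the Tef site of 8 libraries lay 250.5 to 336.5 bp from the printed E-box in each of them, outside the promoter window. Another recurrent interval, of 4 libraries, lay on a Tef promoter window with CACGTG 6.5 bp from its strongest summit. At 5930430L01Rik, with 2 E-boxes, the summits lay 48.5 to 100.5 bp from the nearer of them (8 libraries, median 77 bp). At Cry1 the distance ran from 14.5 to 230.5 bp, so its summits moved between libraries. It was 123.5 to 230.5 bp in the ZT0 libraries and 14.5 to 91.5 bp in the ZT12 libraries, a split at 1 site that was not tested.

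CACGTG, a palindrome that reads alike on both strands, stood in 80 of the 215 promoter windows on recurrent intervals (37.2%, exact Clopper-Pearson 95% interval 30.7 to 44.0). It stood in 286 of 1486 windows on intervals called in 1 library (19.2%, 17.3 to 21.3) and in 2349 of all 32851 windows (7.15%). These intervals, like all of the kind below, cover counting error only, as windows of neighbouring genes share DNA. Most of the sites called in 1 library (4106 of 5526) came from the list of male misaligned ZT12. Peak strength was not matched between the classes. More than 1 copy stood in 23 of the 215 windows (10.7%), against 0.594% of all windows. Ciart and the predicted gene Gm36198 had 3 copies each, and Cdk4, a cyclin-dependent kinase under an interval of 4 libraries, had 4.

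Counted by interval, the share with CACGTG was 20.7% for intervals of 1 library, 30.2% for 2 and 35.7% for 3. It was 36.2% for 4 libraries, 53.3% for 5, 23.5% for 6 (17 intervals), 38.5% for 7 and 50% for all 8 (16 intervals, 24.7 to 75.3). Over all intervals of 4 or more it was 41.3% (66 of 160, 33.5 to 49.3). Above 3 libraries the shares went up and down within wide counting intervals, so no order among the recurrent classes can be read. Base composition moved along with this: median GC content was 67% in windows on recurrent intervals, 63% in those on intervals of 1 library and 52.7% in all windows, and its part in the result was not tested.

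**Figure D1:**
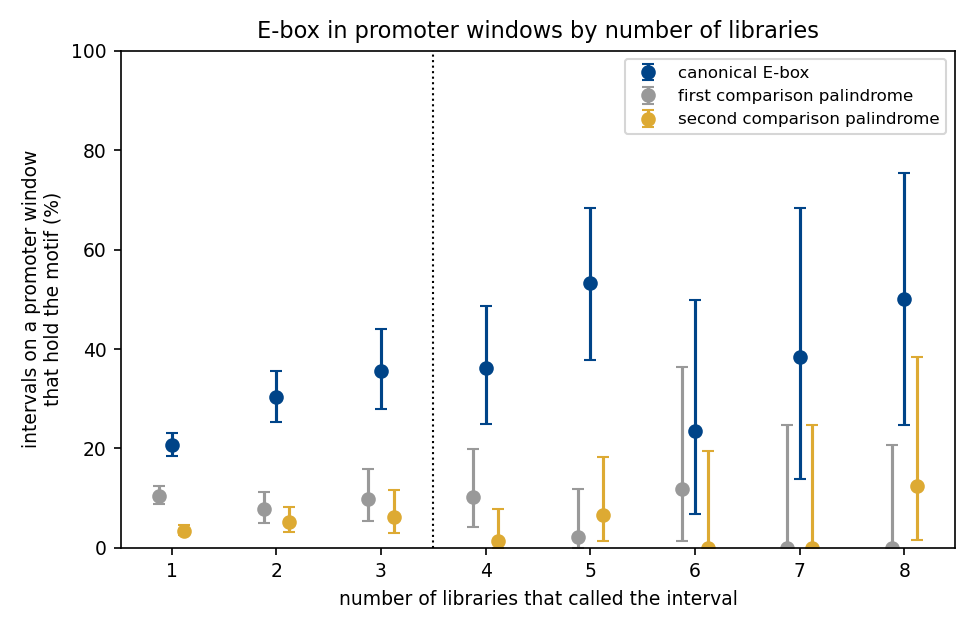
Share of intervals (%, with exact 95% intervals) whose promoter window holds the E-box CACGTG or either comparison palindrome (GACGTC first, ACCGGT second), by the number of libraries that called the interval (the dotted line marks the boundary of 4). The E-box share was 20.7% at 1 library and 36.2% at 4, while the comparison palindromes stayed at or below 12.5% in every class.

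Comparison palindromes made of the same letters were less common. GACGTC stood in 6.05% of the windows on recurrent intervals, 9.62% of those on intervals of 1 library and 4.40% of all windows. For ACCGGT the shares were 3.72%, 3.16% and 2.33%. Each was thus also above its share of all windows. The variant CACGTT, read on both strands, was in 12.1% (8.05 to 17.2) against 8.82% (7.42 to 10.4), and 4.68% of all windows. In intervals of all 8 libraries it was in 7 of 22 windows, among them those of Nr1d1, Cry1 and 5930430L01Rik. CATGTG, read the same way, was in 9.30% against 8.55% and 14.2% of all windows. TTATGTAA, a site of the PAR-bZIP proteins, was in 2.33% (0.759 to 5.34) against 0.875%. The looser CANNTG, which contains the other E-boxes, was in 72.1% of windows on recurrent intervals and 72.3% of all windows. CACGTG copies with exactly 7 bases between them stood in 1 of the 215 windows, that of 5930430L01Rik, and in 4 of all windows. None of the 215 had 6 bases between them, nor did any but 1 of all windows.

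Not every strong site had the letters in its window. No CACGTG stood in the windows of Kmt2a, Nr1d2, Nr1d1, Per3, Dbp or Cry2 under intervals of 7 or 8 libraries, nor in those of Ppara, Hlf, Nampt or Usp2. A window without the letters says nothing of sequence outside it, and summits outside promoter windows were not examined.

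Where the strongest summit lay in the window, with at least 50 bp on either side, CACGTG stood within 50 bp of it in 38 of 87 recurrent intervals (43.7%, 33.1 to 54.7). That was 68 of 242 (28.1%, 22.5 to 34.2) for intervals of 2 or 3 libraries and 77 of 563 (13.7%, 10.9 to 16.8) for 1 library. The ranges in brackets cover counting error only, and sites of the same 8 libraries are not replicates. GACGTC was near the summit in 3.45% of recurrent intervals and 2.84% of those of 1 library. Among intervals with an E-box and the summit in the window, the median distance was 17.5 bp over 46 recurrent intervals and 34.5 bp over 133 of 1 library, and 25 of the 46 lay within 20 bp.

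**Figure D2:**
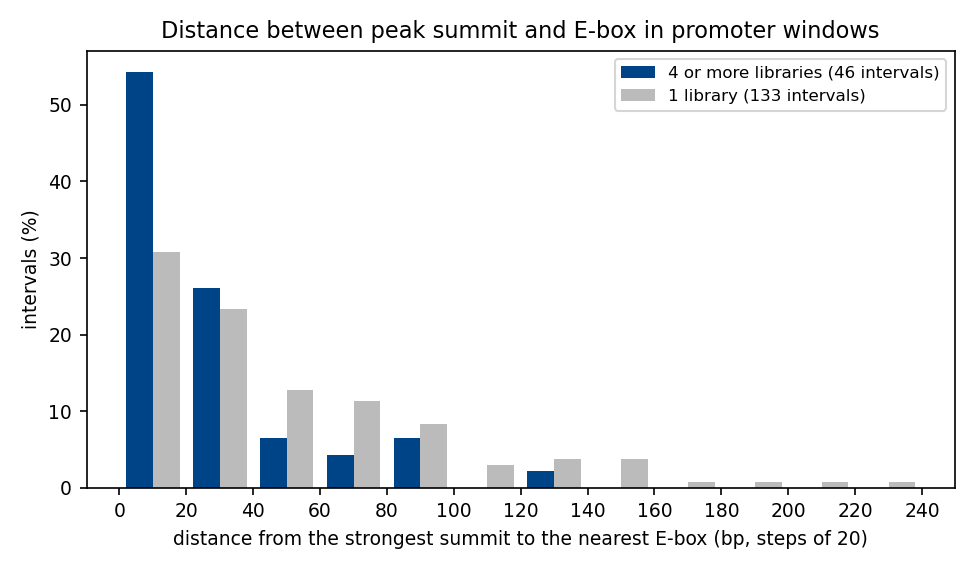
Share of intervals (%) by the distance in bp, in steps of 20, from the strongest peak summit to the nearest E-box of the promoter window, for recurrent intervals (blue) and those of 1 library (grey). The first step holds 54.3% of the 46 recurrent intervals and 30.8% of the 133 others.

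Recurrent sites were promoter sites more often than single-library sites were. The authors' annotation put 210 of 339 at promoter-TSS (61.9%, 56.5 to 67.1), 58 in introns (17.1%), 47 between genes (13.9%), 13 in exons and 11 at transcript ends. Of intervals called in 1 library, 28.3% were at promoter-TSS and 36.6% in introns. Within 1 kb of the annotated start lay 43.7% (38.3 to 49.1) against 25.1% (24.0 to 26.3), and within 10 kb 74.0% against 54.4%. The authors' distance did not always match their label. Sites of Per3 and Lss were promoter-TSS at listed distances of -13207 and -10283 bp, so counts within 10 kb leave them out. The ranges in brackets do not cover variation between animals, as all sites come from the same 8 libraries. The step was already there below the boundary of 4: promoter-TSS held 47.4% of intervals of 2 libraries and 57.7% of those of 3. Width moved with the number of libraries too, from a median of 355 bp at 1 library to 661 bp at 4 and 945 bp at all 8. An interval merges the peaks of all libraries that called it, so its width and number of libraries are not independent. The longest was at Nr1d1, 3386 bp with 19 peaks of 8 libraries, followed by Clcn2 (a chloride channel) with 2247 bp.

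**Figure D3:**
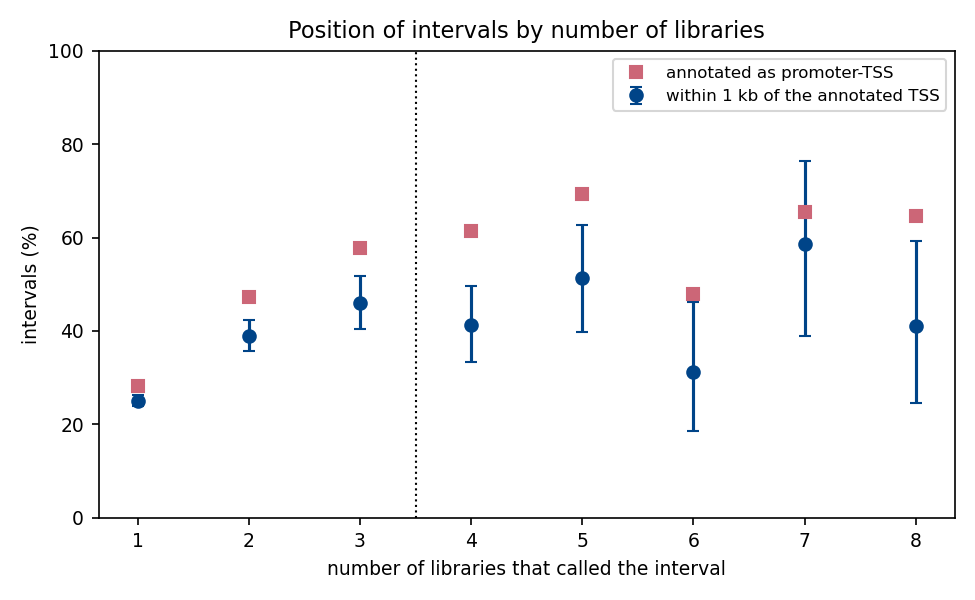
Share of intervals (%) within 1 kb of the annotated start (circles, with exact 95% intervals) and annotated as promoter-TSS (squares), by the number of libraries. Promoter-TSS held 28.3% at 1 library and 61.3% at 4.

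A small share of the recurrent sites sat on raised background. An interval was put in this class when at least 1 of its peaks had a local background of 5 times the lowest of its list or more. It held 26 of the 339 (7.67%, against 0.507% of intervals of 1 library): 13 near the start of chromosome 9, 4 on the mitochondrial genome, and 9 elsewhere. Among the 9 were Per2 and Thrsp, which have peaks over plain background in other libraries. The other 313 are called clear intervals here.

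The recurrent sites were unevenly spread over the libraries, which differ in the length of their lists. Control males at ZT0 called 252 of the 339 (74.3%, against 5.21% of all intervals), and misaligned males at that time 325 (95.9%, against 26.4%). At ZT12 control males called 178 (52.5%, against 4.06%) and misaligned males 332 (97.9%, against 78.7%). Control females at ZT0 called 86 (25.4%, against 3.17%), and misaligned females at that time 316 (93.2%, against 18.8%). At ZT12 control females called 109 (32.2%, against 1.96%) and misaligned females 155 (45.7%, against 3.08%). The 3 longest lists, misaligned males at both times and misaligned females at ZT0, each held over 90% of the sites, and 303 sites were in all 3 of them. The share of all intervals in all 3 was not counted, and the rule itself favours sites called in the longest lists. The 7 sites not called in male misaligned ZT12 were all of raised background.

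**Figure D4:**
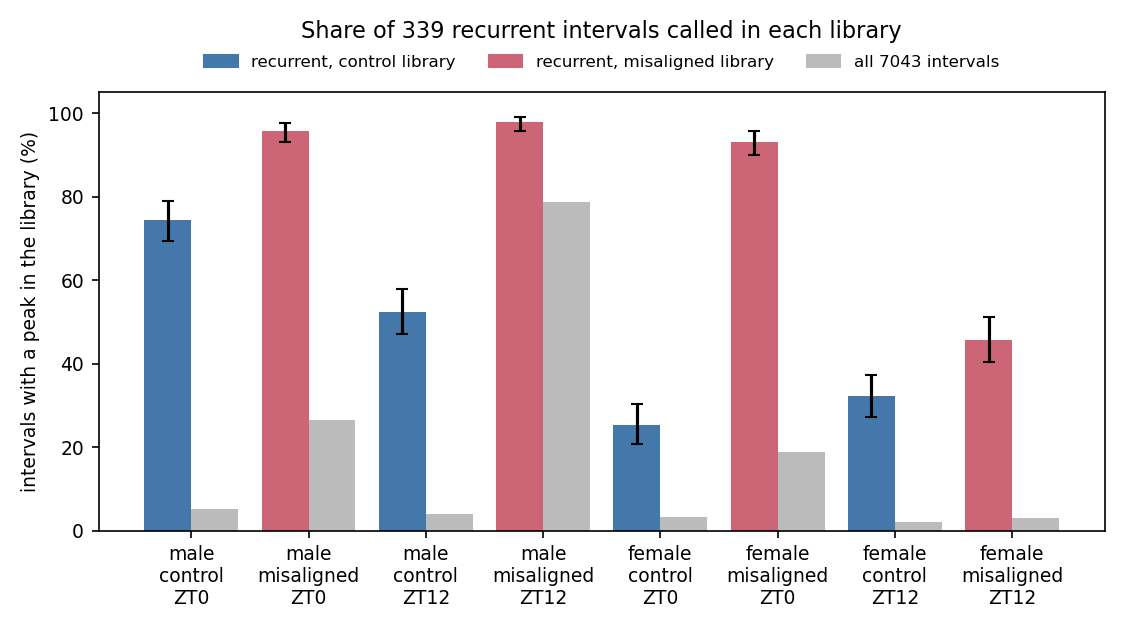
Share (%) of the 339 recurrent intervals (coloured, with exact 95% intervals for counting error) and of all 7043 intervals (grey) with a peak in each library. Recurrent sites range from 25.4% in female control ZT0 to 97.9% in male misaligned ZT12.

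In the short lists the recurrent sites were most of what was called. They made up 79.0% of the called intervals of control females and 71.4% of those of misaligned females at ZT12. The share was 68.7% in control males at ZT0 and 62.2% at ZT12, but 38.6% in control females at ZT0. In the long lists it was 17.5% (misaligned males, ZT0), 23.9% (misaligned females, ZT0) and 5.99% (misaligned males, ZT12). Among the 50 strongest peaks of each list over plain background, 43 to 50 lay in recurrent intervals.

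The 339 sites fell into 48 patterns of calls. The commonest, with 71, was male control ZT0 with the 3 long lists, and the next, with 34, was all 8 libraries. More misaligned than control libraries called 262 of the 339, fewer called 9 and as many called 68. In males at ZT0, 87 were called under misalignment alone (22.6% of all intervals were) and 14 under control alone (1.42%). In males at ZT12 it was 161 (75.5%) and 7 (0.895%), in females at ZT0 236 (17.6%) and 6 (1.95%), and in females at ZT12 87 (2.09%) and 41 (0.965%). The split into 262, 9 and 68 was not counted over all intervals. Of the 5526 intervals of 1 library, 4106 were called in male misaligned ZT12, 807 in male misaligned ZT0 and 396 in female misaligned ZT0. Female misaligned ZT12 called 29, and the control libraries called 15 to 109 each. The rule chose sites by these same calls and the lists differ in length, so nothing is read from the counts.

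Exactly the 4 misaligned libraries and no other called 15 sites. Among the strongest of them by mean -log10 q were those at 2610002J02Rik, Ntpcr, Nampt, Sox5os1, Lss, Macrod1 and Zbtb14, and Nfe2l2 and Rer1 were among the rest. Nampt catalyses the limiting step of NAD salvage, and Lss makes lanosterol in cholesterol synthesis. No site had the reverse pattern of the 4 control libraries, and none that of the 4 female, the 4 ZT0 or the 4 ZT12 libraries. The 4 male libraries alone called 4 sites: Ptp4a2 (a phosphatase), Gm11453, Pcsk6 (a proprotein convertase) and Gm29277 on the Y chromosome, which females lack.

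At Nampt the summit of misaligned males held 42 fragments at ZT0 and 85 at ZT12, and that of misaligned females 57 and 46. Its -log10 q was 12.4, 41.3, 24.8 and 12.0 in the same order. At Lss the summit fragments were 50, 83, 44 and 40. Both were highest in male misaligned ZT12, and a control library without a call has no value in the lists, so the size of the difference is unknown.

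Many genes of the clock loop had a recurrent site nearby, though the recurrent sites had 322 distinct nearest genes in all. The core clock list has 22 genes, and 12 of them were the nearest gene, within 10 kb, of a recurrent site, against 13 for any interval. Per3 is not among the 12, as its promoter-TSS site has a listed distance of -13207 bp. Over all genes, 240 of 3571 with any interval that near had a recurrent one (6.72%), and over the genes of the other lists 17 of 71. The lists were drawn up with earlier results of these data known, so this is a description. By nearest gene, those with more than 1 clear recurrent site numbered 10. They were the clock genes Cry2, Dbp, Hlf, Nr1d1 and Per1, the deubiquitinase Usp2, the repressor Hes1, the kinase Pim3, Sertad1 and Gm29529.

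The sites of a gene were called in the same libraries at 4 of these 10 genes (Dbp, Nr1d1, Hes1 and Gm29529) and in different libraries at the other 6. At Per1 the upstream site (chromosome 11, 69094535 to 69095474) was called in 8 libraries and the site on the printed promoter E-box (69098459 to 69099102) in 6, without the 2 female control libraries. The summit of the second held 58 fragments at ZT0 and 75 at ZT12 in control males, and 87 and 137 in misaligned males. In misaligned females it held 90 and 75. At Cry2 the intron site (chromosome 2, 92423499 to 92424270) was called in 8 and the promoter site (92433801 to 92434592) in 7, all but female control ZT0. At Hlf an intergenic site at a listed distance of -30177 bp was called in 8. A site labelled promoter-TSS, though listed at -2935 bp, was called in 5. Both Dbp sites and both Nr1d1 sites were called in 8, and the sites of Hes1 and of Gm29529 in 4.

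Outputs of the clock had sites of fewer libraries. Of 14 genes, 7 had a recurrent site within 10 kb, and 11 any interval. Klf15, a regulator of amino acid and glucose metabolism, had one in 7 libraries, Klf11 and the deubiquitinase Usp2 in 6, and Por, which passes electrons to cytochrome P450 enzymes, in 5. Nampt, Wee1 (a kinase that restrains mitosis) and Klf10 had theirs in 4. The Klf11 summit held 62 fragments at ZT0 and 60 at ZT12 in control males, 67 and 107 in misaligned males, and 85 and 80 in misaligned females. It was highest in male misaligned ZT12, and neither female control library called it.

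Of the genes of 4 metabolic lists, 29 had any interval within 10 kb and 6 of them a recurrent one (20.7%, against 6.72% over all genes). Over all lists outside the core clock the share was 23.9%. These lists too were drawn up with earlier results known, so no excess is read from them. Within 10 kb the count was 1 of 20 for cholesterol (Insig1, which holds back SREBP), 2 of 18 for fat synthesis (Dgat2, a last step of triglyceride synthesis, and Thrsp), and 1 of 16 for fasting and fat oxidation (Ppara, a fatty acid sensor). It was 2 of 16 for glucose and insulin (Slc2a2, the hepatocyte glucose transporter, and Pck1, a gluconeogenic enzyme). Over any interval the 4 lists had 9, 7, 5 and 8. The Ppara summit held 45 fragments at ZT0 and 38 at ZT12 in control males, 57 and 71 in misaligned males, and 47 and 59 in misaligned females. Pck1 was the weakest of these, with 29 to 34 fragments in its 4 libraries. No female control library called either.

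Regulators of chromatin had 2 of 15 (3 with any interval), Hmgn2 (a nucleosome-binding protein) in 6 libraries and Phf1 (a partner of the Polycomb complex) in 5. Stress and inflammation had 2 of 22 (13 with any interval), Nfe2l2 (the master factor of oxidative stress) in the 4 misaligned libraries, and Per1. Abundant secretory genes had 1 of 19 (7 with any interval), Rbp4, the retinol carrier. Liver transcription factors (15 genes), bile acid and xenobiotic genes (15) and markers of liver cells other than hepatocytes (19) had none. Any interval was within 10 kb of 5, 4 and 0 of those 3 lists. Over all genes with any interval that near, 6.72% had a recurrent one, so no lack can be read from so few genes. By promoter window in place of nearest gene, chromatin had 2 (Kmt2a and Phf1, without Hmgn2), glucose 2 (Pck1 and Pcx, without Slc2a2) and cholesterol 2 (Insig1 and Lss). Stress then had 1 (Per1, without Nfe2l2) and fat synthesis 0.

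Nearest gene names can hide a promoter. Of the 160 recurrent intervals on a promoter window, 119 overlapped that of the gene the authors name and 41 only windows of other genes. The interval the authors assign to Gm26249 lay on Kmt2a, a histone H3 methyltransferase. RP24-277J22.4 stood for Cnn3 (a calponin), 4933433G15Rik for Mapk6 (an atypical MAP kinase), Gm31266 for Jade1, Gm26697 for Slc27a2 (a fatty acid transporter and activating enzyme) and E330011M16Rik for Coq10b (a coenzyme Q-binding protein).

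Peak strength could be followed at the 26 clear intervals called in all 8 libraries. Strength counts the summit fragments above local background in units of the lowest background among the peaks of that list. This unit ran from 4.25 fragments in male misaligned ZT12 to 6.16 in male control ZT0. It is a minimum over called peaks, so it can depend on list length, and a smaller unit gives a larger strength. In males at ZT0 and ZT12 it was 6.16 and 4.39 in controls, and 4.32 and 4.25 under misalignment. In females it was 4.84 and 5.67 in controls, and 5.06 and 6.14 under misalignment. How it relates to depth is not known. The rule asked for a call in every library, so weak values are missing from each, and no test is given. Median strength over the 26 was 11.6 at ZT0 and 22.7 at ZT12 in control males, and 27.0 and 45.5 in misaligned males. In control females it was 7.70 and 12.4, and in misaligned females 22.7 and 16.95. Strength was highest in male misaligned ZT12 at 25 of 26 sites and lowest in female control ZT0 at 20.

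**Figure D5:**
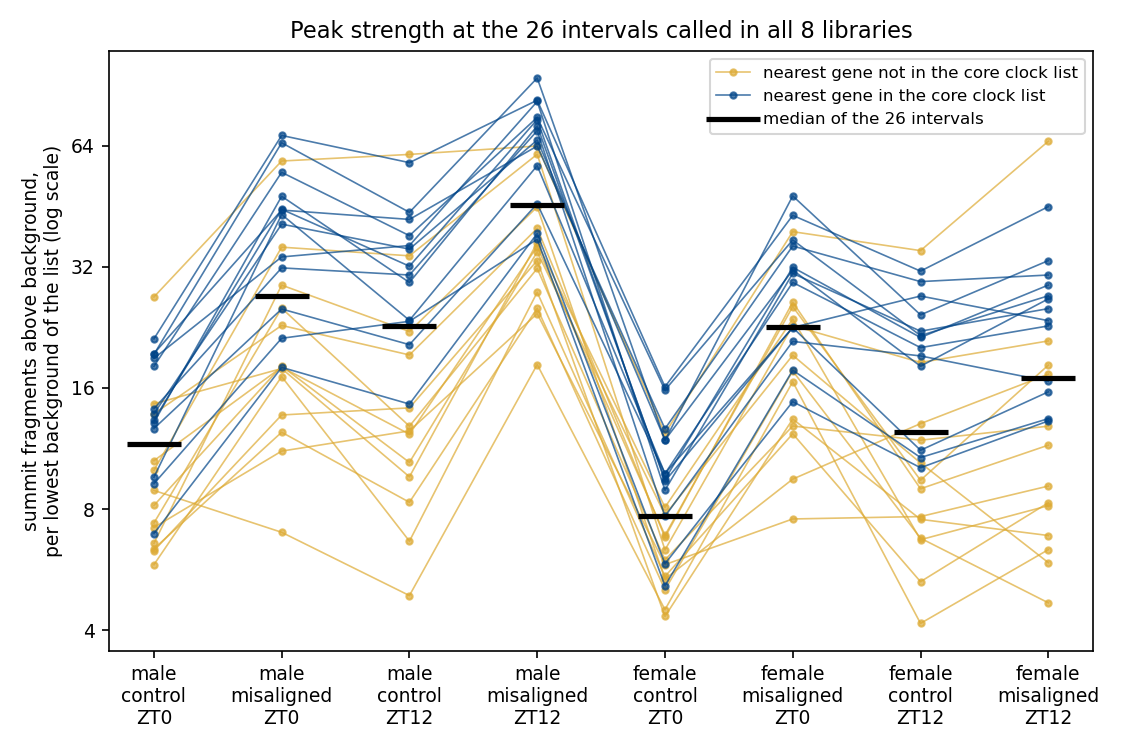
Strength (summit fragments above background in units of the lowest background, log scale) of the 26 clear intervals called in all 8 libraries, with a line per interval, blue for core clock genes, and a bar at the median of each library. The medians run from 7.70 in female control ZT0 to 45.5 in male misaligned ZT12.

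Misaligned libraries were stronger than their controls by a mean log2 difference of 1.26 in males at ZT0, 1.18 in males at ZT12, 1.49 in females at ZT0 and 0.26 in females at ZT12. The number of sites that were higher was 25, 26, 26 and 21 of 26. The mean over the 4 strata was 1.05 on the log2 scale, a ratio of 2.07. With the authors' fold enrichment in place of strength the 4 differences were 0.61, 0.76, 1.17 and 0.24 in the same order, with a mean of 0.70. Females were below males in all 4 pairs, by a mean log2 difference of -0.74, widest in misaligned ZT12 (-1.54) and narrowest in misaligned ZT0 (-0.30). A difference shared by nearly all sites of a library and the efficiency of that library cannot be told apart with 1 library a group.

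The difference between the times changed sign in misaligned females. ZT12 was above ZT0 by 0.87 in control males (24 of 26 sites), 0.79 in misaligned males (26 of 26) and 0.79 in control females (23 of 26), on the log2 scale. In misaligned females it was -0.44, and 5 of 26 sites were higher at ZT12, namely those of Dbp, Kmt2a (by promoter window), Gpr146, Igsf8 and Nr1d2. With the authors' fold enrichment in place of strength the 4 values were 0.35, 0.50, 0.33 and -0.60. The mean over the 4 strata then fell from 0.50 to 0.14. This difference between groups rests on 2 libraries of misaligned females and was not tested.

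Tef, a PAR-bZIP output factor, shows the common course. Its strength was 19.4 at ZT0 and 43.7 at ZT12 in control males, and 65.0 and 94.2 in misaligned males. In control females it was 11.9 and 24.3, and in misaligned females 48.0 and 33.1. Each misaligned value was above the control value of the same sex and time.

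The strength of the Ciart site, on 3 E-boxes, was 14.2 and 30.5 at the 2 times in control males and 31.8 and 69.7 in misaligned males. In control females it was 7.67 and 19.2, and in misaligned females 20.9 and 16.6. Its misaligned value was thus below the control value in females at ZT12. At Kmt2a the strength was 26.9 and 60.8 in control males, 58.6 and 63.8 in misaligned males, 12.3 and 35.1 in control females and 39.1 and 65.6 in misaligned females. It was the single site highest in female misaligned ZT12. At Pard6b, a cell polarity gene, it was 5.82 and 6.65 in control males, 17.1 and 27.6 in misaligned males, 5.44 and 5.28 in control females and 12.3 and 8.29 in misaligned females. The 2 times were close to each other in controls of either sex at Pard6b.

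Sites were also compared after taking off the median of their library, on the log2 scale, which removes what all sites share. ZT12 was then above ZT0 in all 4 strata at 5930430L01Rik (authors' RP23-134H19.3), Ciart, the Cry2 intron and Bhlhe40 (a clock repressor), and below it in all 4 at Pard6b. Averaged over strata, 11 of the 13 sites of core clock genes leaned to ZT12 (median 0.19, -0.19 to 0.40), and 6 of the 13 others did (median -0.20, -0.84 to 0.64). The median taken off comes from these same 26 sites, so a lean of one set moves the other the opposite way by construction. The strongest leans to ZT0 were at Ccne1, which encodes cyclin E1 (-0.84), and at the site of 1600020E01Rik and Pcbp1, an RNA-binding protein (-0.75). For treatment, Tef was above in all 4 strata, and an Nr1d1 site and Gpr146 (a receptor) were below. For sex, 5930430L01Rik and the Cry2 intron were below in females in all 4. These runs are descriptions of 26 sites over 3 contrasts, and none was tested.

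Summits of these 26 sites moved between libraries to different extents. The span of summit positions over the 8 libraries had a median of 79.5 bp. The span was at most 50 bp at 7 sites and at most 100 bp at 16, with 30 bp at Kmt2a and at the Cry2 intron. It was widest at Nr1d1 (1496 bp) and Bhlhe40 (986 bp), whose intervals hold more peaks than libraries.

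At the boundary of the rule, the 3 weakest sites of exactly 4 libraries were at Gm37563, Rer1 and Irf2bp2, with a mean -log10 q of 3.96, 4.38 and 5.77. Among the weakest of exactly 3 libraries were E030042O20Rik and 9430038I01Rik, at 2.40 and 2.70. The strongest of 3 libraries, Ccno, Snx9 and Hif1a, reached 48.5, 43.8 and 43.2, against 52.9, 49.2 and 45.4 for the strongest of 4, Gm26501, Zfp292 and Ddx50. The median over a class was 11.2 at 3 libraries, 16.997 at 4 and 58.2 at all 8. The values were thus lower just outside the boundary at each of these points, with ranges that overlap.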

How the data were processed

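The deposited data are peak lists of 8 BMAL1 libraries and a table that merges them. The submitters' processing notes name BWA 0.7.17-r1188, MACS2 2.2.7.1 and the build GRCm38. The deposited lists give a score, a fold enrichment as a ratio over local background, and -log10 p and -log10 q per peak, all the authors' own values. How the IgG libraries were used and the q threshold are not given in the sources used here. Of the merged table, 48 columns of per-library values were not used. The members, lists and motifs were chosen with earlier results of these data known.

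Whole fragments at each summit, with their local background, were solved from the 2 peak statistics (relative tolerance 0.0001) for 100% of peaks in each list, with Python 3.11.15, pandas 2.3.3 and scipy 1.17.1. The recovery, motif search and overlaps were tested on simulated data. Intervals are exact Clopper-Pearson at 95%. Motifs were searched in RefSeq promoter windows of GRCm38.p6. Stretches around CACGTG upstream of the start were taken under clear intervals of 6 or more libraries, 18 in all, and the 9 printed were chosen after their values were seen. Of the motifs searched, CACGTT and CATGTG and the comparison palindromes were added after seeing the data. The sign-flip test planned for strength is not given, since the calls that chose the 26 intervals come from the same peaks.

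Genes named are those nearest the clear intervals of all 8 libraries, the best ranked of 7, members of the lists, exact patterns of 4 libraries, sites at the boundary, the longest intervals, and genes with several sites. Genes of promoter windows and those with several E-boxes were named after their values were seen. Not all of them are reported here. No genome sequence was used, so summits outside promoter windows were not searched. Alternatives are listed in the closing section.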

Additional observations from a re-analysis of the deposited data

Results flagged for a closer look

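The difference in strength between ZT12 and ZT0 at the 26 clear intervals called in all 8 libraries went the other way in misaligned females (-0.44 on the log2 scale) than in control females, control males and misaligned males (0.79, 0.87 and 0.79). The difference between these groups was not tested, as each had 1 library at each time.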

How the results depend on the processing

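No analysis paired by replicate was possible because every group has 1 library, so the replicate numbers pair nothing. Differences within strata of sex, time and treatment stand above as descriptions. The count of 339 recurrent intervals was within 1.5 times under -log10 q of at least 3 (324), on chromosomes 1 to 19, X and Y (335) and without raised background (313). It was 221 when peaks had to overlap by at least 50%, 106 with all lists cut to the 141 strongest peaks, 658 for 3 or more libraries and 189 for 5 or more. Leaving out each library in turn gave 194 to 326, with 200 without male misaligned ZT0, 194 without male misaligned ZT12 and 207 without female misaligned ZT0. Of the 106, 90 were clear. The share near the start was 64.6% at 5 kb in place of 43.7% at 1 kb. The other settings tried on that share, on calls per library and on the CACGTG share stayed within counting error or 1.5 times.

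Gene list counts within 1 kb in place of 10 kb were 5 for the core clock, 0 for cholesterol, 1 for fat synthesis, 1 for glucose and 1 for stress. At any distance cholesterol had 2. By promoter window, which was added after seeing the data like the clear-interval and leave-one-out settings, clock output had 4, cholesterol 2, fat synthesis 0 and stress 1. Strength differences kept their direction with fold enrichment (0.70 for treatment, 0.14 for time, -0.71 for sex) and with raised background kept (0.72, 0.45 and -0.67). The depth of the libraries is unknown, so an interval without a call in a short list may be a weak site.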
